A study of Mus musculus with 6 samples.

Results

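Nos2, Ido1, Il4i1, Kmo and Hmox1 encode enzymes of arginine, tryptophan and heme breakdown that myeloid cells can use to restrain T cells. These were chosen by name and are 5 of the 32285 genes in the deposited matrices. They were followed through droplets with at least 5000 gene UMIs (unique molecular identifiers, each marking 1 captured molecule), at most 10% mitochondrial UMIs and no T cell receptor contig assembled for their barcode. Such droplets numbered 4246 of 8878 at day 13 and 1452 of 4667 at day 19, and are called outside droplets below. The remaining 4632 and 3215 droplets, whose barcodes carry a contig, served as background. This background is mixed: 617 and 471 of its droplets had at least 2 UMIs of a myeloid marker described below, so values in contig droplets with no marker are given as well.

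Cells came from tumors that the mouse glioma line CT2A formed in the brains of wild-type C57BL/6J mice, with an age of 6 to 8 weeks in the labels. CD3+CD4+ and CD3+CD8+ cells were sorted and loaded for 10x Genomics 5' chemistry, with 10000 cells targeted per time point. Day 13 drew on 16 mice, pooled by 4, and day 19 on 4 mice. Both days have 1 capture, split into libraries for transcripts, surface antibodies and T cell receptors, so day, capture and staining cannot be told apart and no test across samples is possible. No group received a treatment or carries an engineered allele in the labels. The sort was for T cells, so the myeloid droplets described here passed a gate meant to leave them out, and they need not represent the myeloid cells of the tumor.

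Inducible nitric oxide synthase, encoded by Nos2, turns arginine into nitric oxide and citrulline. Ido1 encodes indoleamine 2,3-dioxygenase 1, which opens the tryptophan ring on the way to kynurenine, and Kmo encodes kynurenine 3-monooxygenase, which acts further down that path. Il4i1 encodes a secreted amino acid oxidase that acts on phenylalanine, tyrosine and tryptophan. Hmox1 encodes heme oxygenase 1, which breaks heme into biliverdin, iron and carbon monoxide and is known for its induction by oxidative stress. Depletion of arginine and tryptophan, and the products of these enzymes, are known to limit T cell proliferation.

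The genes lie apart in the mouse genome. In the GRCm38.p6 annotation, Nos2 (ENSMUSG00000020826) spans chr11:78920787-78960226. Ido1 (ENSMUSG00000031551) spans chr8:24584133-24596952, and Hmox1 (ENSMUSG00000005413) lies on the same chromosome at chr8:75093618-75100593. Kmo (ENSMUSG00000039783) spans chr1:175632193-175660853. Il4i1 (ENSMUSG00000074141) spans chr7:44836288-44840809, and the annotated end of its neighbour Nup62, at 44831836, does not overlap it. All 5 are protein coding.

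Promoter sequence was at hand for 2 of the 5 genes, Il4i1 and Kmo, which are also the genes with the clearest class patterns below. The 250 bases before each annotated start are shown, from RefSeq on GRCm38.p6, plus strand, 5′ to 3′. Capitals mark the only match to the core GAGGAAGT of the myeloid and B cell factor PU.1, read on both strands. Il4i1 is chr7:44836038-44836287 and Kmo is chr1:175631943-175632192.
Il4i1: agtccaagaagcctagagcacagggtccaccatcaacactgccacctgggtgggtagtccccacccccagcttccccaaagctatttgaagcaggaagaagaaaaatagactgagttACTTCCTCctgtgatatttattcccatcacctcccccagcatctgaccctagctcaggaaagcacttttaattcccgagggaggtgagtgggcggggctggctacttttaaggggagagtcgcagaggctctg
Kmo: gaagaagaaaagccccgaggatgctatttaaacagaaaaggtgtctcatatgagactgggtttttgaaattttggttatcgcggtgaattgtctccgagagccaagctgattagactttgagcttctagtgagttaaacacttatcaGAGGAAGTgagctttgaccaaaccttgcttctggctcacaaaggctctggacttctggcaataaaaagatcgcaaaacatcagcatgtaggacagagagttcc
The match lay on the opposite strand at positions -133 to -126 in Il4i1 and on the gene's strand at -103 to -96 in Kmo. Of 32851 RefSeq promoters searched over the same length, 802 (2.44%) held GAGGAAGT, and 19.7% held its inner part GGAAGT, which overlaps it. No match was found in either window for the interferon-stimulated response element (in 2.98% of promoters), TTCNNNGAA (a gamma activated site, 7.02%), TATAAA (12.4%) or TGANTCA (an AP-1 site, 6.75%). A match describes letters only.

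Outside droplets were sorted into overlapping classes by 5 marker genes, each needing at least 2 UMIs. Cd209a marks type 2 dendritic cells, Fscn1 mature dendritic cells, Gpnmb tumor macrophages, Vcan monocytes and P2ry12 microglia. From day 13 to day 19 the classes held 347 and 133 droplets for Cd209a, 844 and 256 for Fscn1, 535 and 95 for Gpnmb, 134 and 23 for Vcan, and 698 and 348 for P2ry12. A further 2414 and 811 droplets had fewer than 2 UMIs of every marker. Labels were checked on the marker list of each class without the gene that chose it, in CPM (UMIs of the gene per 1000000 gene UMIs). On both days each of the 5 lists was highest in its own class, with the remaining 9 tumor macrophage markers at 15801 CPM in Gpnmb droplets at day 13 and the remaining 7 mature dendritic markers at 7824 in Fscn1 droplets. The other classes at day 13 had at most 13846 of the former, in P2ry12 droplets, and 5204 of the latter, in Gpnmb droplets. With all 10 genes, tumor macrophage markers outweighed the class's own list in Cd209a (5234 against 4969 CPM), Fscn1 (9464 against 8981) and P2ry12 droplets (14029 against 4105) at day 13. At day 19 they outweighed it also in Vcan droplets, at 7358 against 5193, and in Fscn1 droplets they reached 12194 against 5386. The lists differ in their genes and in their length, so these sums do not say which cell type a class mostly held. Classes were far from pure, since 365 droplets at day 13 held both Fscn1 and P2ry12, which is 43.2% of the former and 52.3% of the latter. Droplets with 2 or more markers numbered 587 and 188, with median totals of 30333 and 37697 UMIs against 12264 and 16552 over all outside droplets. Doublets were not removed, and values from droplets with only 1 of the 5 markers are given beside part of the results.

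Contig droplets with a marker held tumor macrophage markers at 10133 and 11984 CPM and T cell markers at 2410 and 2771, against 1028 and 2080 and 5126 and 4870 in contig droplets with no marker. T cell RNA was also present in most outside droplets. A UMI of Cd3d, Cd3e, Cd3g or Trac was seen in 76.8% of outside droplets at day 13 and in 76.7% at day 19. At day 13 the classes ran from 56.2% in Cd209a to 82.6% in Gpnmb droplets. At day 19 they ran from 39.1% in the 23 Vcan droplets and 54.9% in Cd209a droplets to 87.4% in Gpnmb and 87.6% in P2ry12 droplets. Between the days, 62 barcodes were shared, 11 of them outside the contig files. All intervals below are exact 95% intervals that cover counting error only, not differences between mice or between droplets.

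Il4i1, Kmo and Hmox1 differed between the marker classes. On both days Il4i1 was concentrated in Fscn1 droplets and Kmo had its highest level in Cd209a droplets, though droplets with no marker held more of its UMIs. Hmox1 was highest in Vcan droplets at day 13 and in Gpnmb and Vcan droplets at day 19, though P2ry12 droplets led at day 19 among droplets without T cell RNA. Nos2 and Ido1 were rare, with 109 and 19 UMIs over both days. At day 19 Il4i1 and Kmo were lower over all outside droplets, but Kmo was not distinguishable from its day 13 level in droplets without T cell RNA. Nos2 over all outside droplets was not distinguishable from its day 13 level.

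**Figure D1:**
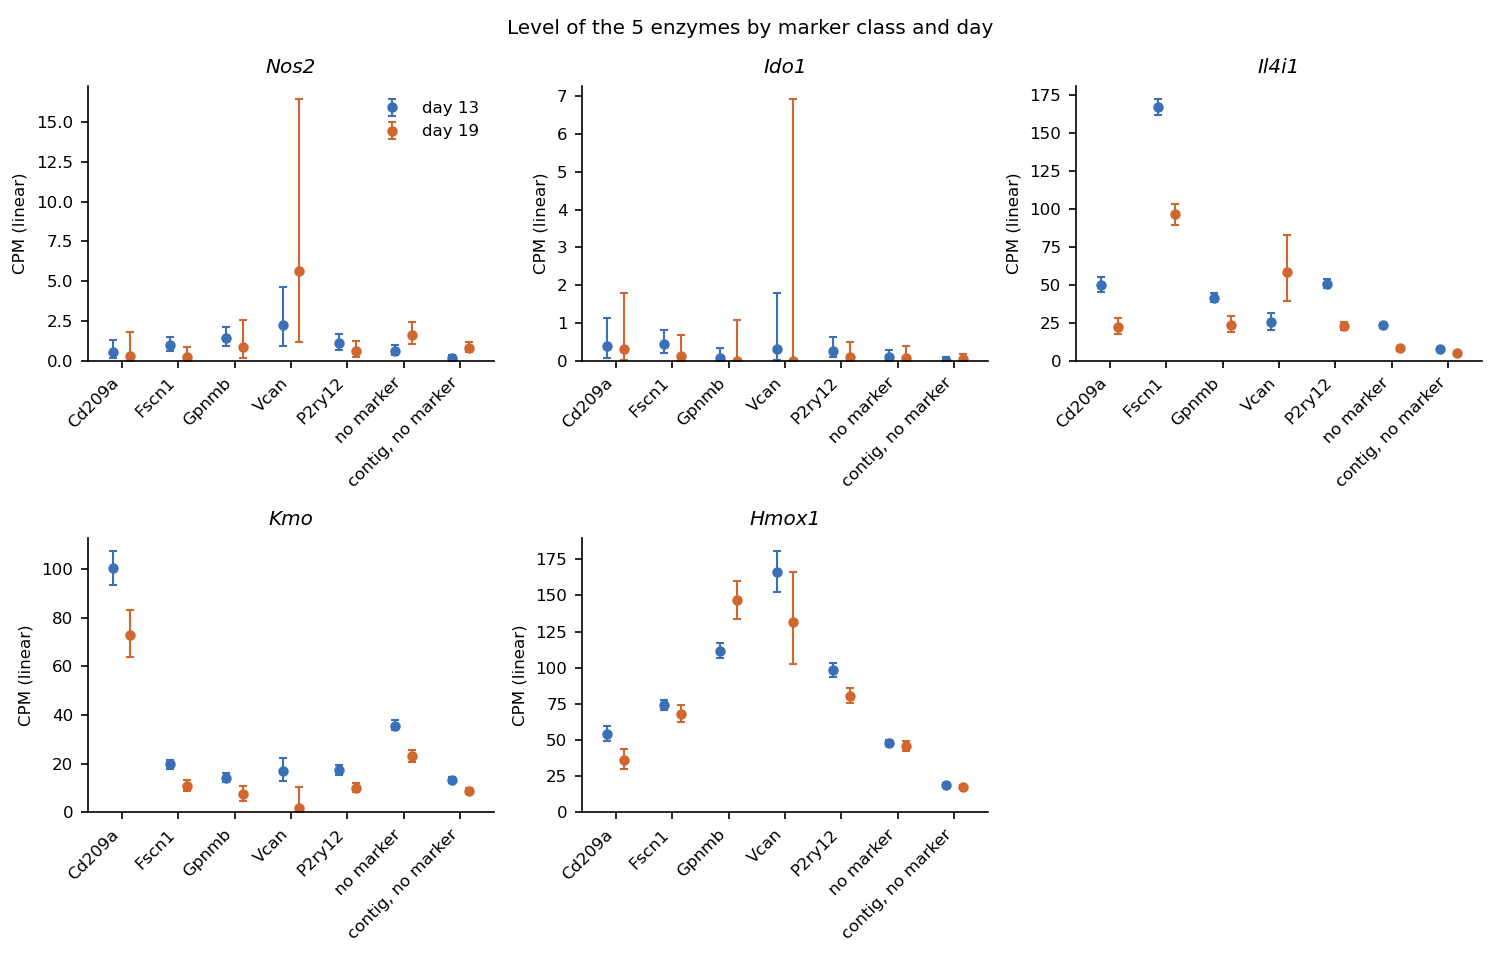
Level of each enzyme (CPM on a linear axis, a separate scale per gene) by marker class on day 13 (blue) and day 19 (orange); points are summed droplets and bars exact 95% counting intervals. Il4i1 peaks in Fscn1 droplets at 167 and 96.2 CPM, Kmo in Cd209a droplets at 100.2 and 72.9, and Hmox1 in Vcan and Gpnmb droplets, while contig droplets with no marker are the lowest group drawn for Il4i1 and Hmox1.

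Nos2 was rare in outside droplets on both days. It had 75 UMIs in 52 outside droplets at day 13, or 0.994 CPM (0.782 to 1.25), and 34 UMIs in 26 droplets at day 19, or 1.04 CPM (0.718 to 1.45). The log2 ratio was 0.06 (-0.57 to 0.66). The class intervals all overlapped at day 13, with 23 and 3 UMIs in Gpnmb droplets, 22 and 2 in Fscn1, 21 and 7 in P2ry12, 7 and 3 in Vcan and 4 and 1 in Cd209a droplets. With shared droplets left out, however, Cd209a droplets were below Gpnmb droplets at day 13 by a log2 ratio of -2.09 (-5.23 to -0.06), from 2 against 21 UMIs. Droplets with no marker held 20 UMIs at day 13 and 23 at day 19, 0.619 against 1.61 CPM, a log2 ratio of 1.38 (0.45 to 2.32). The contig background was higher at day 19, at 0.221 and 0.759 CPM from 10 and 30 UMIs. In contig droplets with no marker it was 0.164 and 0.802 CPM from 6 and 25 UMIs, a log2 ratio of 2.29 (0.97 to 3.87). At day 13, Gpnmb droplets without T cell RNA had 6.23 CPM (2.50 to 12.8) from 7 UMIs in 93 droplets, against 1.07 (0.610 to 1.73) in Gpnmb droplets with it. Outside droplets were above contig droplets by a log2 ratio of 2.17 (1.21 to 3.29) at day 13. At day 19 the ratio was 0.45 (-0.30 to 1.21), so Nos2 was not distinguishable from the contig background there. Free RNA, read from barcodes with 10 to 100 gene UMIs, held 1 Nos2 UMI on each day, or 0.323 CPM (0.00819 to 1.80) and 0.470 CPM (0.0119 to 2.62), so outside droplets could not be set apart from it on either day.

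Ido1 was close to the limit of detection. It had 16 UMIs in 14 outside droplets at day 13, or 0.212 CPM (0.121 to 0.344), and 3 UMIs at day 19, or 0.0914 CPM (0.0189 to 0.267). The log2 ratio of -1.21 (-3.63 to 0.59) includes no difference. Fscn1 droplets held 10 of the 16 UMIs at day 13, each in a different droplet, and 1 of the 3 at day 19. A single Cd209a droplet with 6 Cd209a UMIs and no T cell UMI held 3 Ido1 UMIs. Contig droplets held 2 and 1 UMIs in all, and contig droplets with no marker 0 and 1, and over both days outside droplets stood above contig droplets by a log2 ratio of 2.31 (0.55 to 4.71). Free RNA held 2 Ido1 UMIs at day 13, or 0.647 CPM (0.0783 to 2.34), and 0 at day 19, so Ido1 in outside droplets could not be set apart from it. Classes other than Fscn1 each held 5 UMIs or fewer at day 13. With shared droplets left out, Fscn1 droplets held 9 and Gpnmb droplets 0, a log2 ratio of at least 0.84 against a floor of 3 counts, with a lower limit of 0.24 once the counting error of the 9 is included. Without the 5 droplets richest in Ido1 on each side they held 4 and 0, with a lower limit of -1.35. Without T cell RNA they held 1 and 0, so neither setting tells the classes apart.

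Fscn1 droplets held 3782 of the 4789 Il4i1 UMIs at day 13 and 786 of 970 at day 19. In outside droplets it had 4789 UMIs in 817 droplets at day 13, or 63.5 CPM (61.7 to 65.3), and 970 UMIs in 184 droplets at day 19, or 29.6 CPM (27.7 to 31.5). The log2 ratio was -1.10 (-1.203 to -1.002). Fscn1 droplets had 167 CPM (161 to 172) and 96.2 CPM (89.6 to 103), and with Fscn1 as the only marker the level was 309 CPM (297 to 322) and 162 CPM (147 to 177). After thinning, Il4i1 was seen in 66.1% (61.1% to 70.8%) of the Fscn1-only droplets at day 13 and 38.7% (29.6% to 48.5%) at day 19, against 1.07% and 1.02% of contig droplets with no marker. Fscn1 was present in 457 of the 600 droplets with at least 2 Il4i1 UMIs (76.2%, 72.6% to 79.5%) at day 13 and in 94 of 112 (83.9%) at day 19. With droplets that hold both markers left out, Fscn1 exceeded Gpnmb droplets by a log2 ratio of 4.73 (4.39 to 5.09) and 5.01 (3.96 to 6.33). Fscn1 droplets remained the highest class under all 15 settings of limits, thinning, marker minimum and left-out tags, on both days. Some settings hardly changed the droplets, as the limit of 5% mitochondrial UMIs left both levels unchanged. The 15 settings are thus not 15 separate checks, for this gene or for those below.

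The other classes owed much of their Il4i1 to droplets with more than 1 marker. P2ry12 droplets had 50.7 CPM (47.5 to 54.0) and 22.7 CPM (20.1 to 25.7), but 11.96 and 3.69 with P2ry12 as the only marker. Gpnmb droplets had 41.5 and 23.5 CPM, but 8.56 and 0.889, from 55 and 1 UMIs, with Gpnmb alone. Cd209a droplets kept more of their level, with 49.8 and 22.2 CPM, and 31.4 and 22.6 with Cd209a alone, where the log2 ratio of the days was -0.47 (-1.05 to 0.07). In the latter group 37 UMIs at day 19 came from 5 droplets, 32 of them from 1. Vcan droplets went the other way, from 25.3 CPM (20.02 to 31.5) to 58.2 CPM (39.5 to 82.6). At day 19 that level rested on 31 UMIs in 2 droplets, 30 of them in 1 droplet with 79 Fscn1 UMIs and 6 Vcan UMIs, which also held 104 UMIs of the T cell genes. With Vcan alone there were 3 and 1 Il4i1 UMIs.

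**Figure D2:**
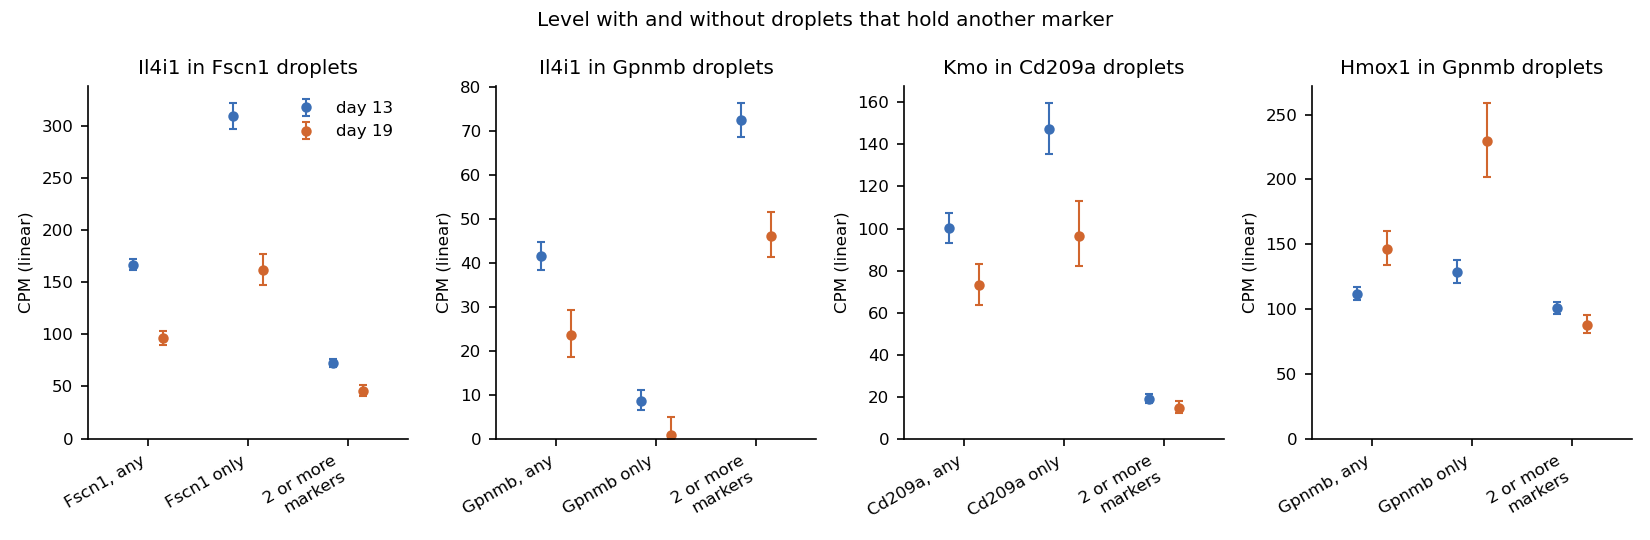
Level (CPM, linear axes with a separate scale per panel) in all droplets of a class, in those with only that marker, and in droplets with 2 or more markers, on day 13 (blue) and day 19 (orange), with exact 95% counting intervals. Il4i1 goes up from 167 to 309 CPM in Fscn1 droplets at day 13 and down from 41.5 to 8.56 in Gpnmb droplets when mixed droplets are left out. Hmox1 in Gpnmb droplets goes from 147 to 229 at day 19, where 1 droplet holds 149 of the 258 UMIs in droplets with Gpnmb alone.

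Mature dendritic markers were lower at day 19 in the same droplets, at 8981 and 5386 CPM in Fscn1 droplets and 13866 and 7445 with Fscn1 as the only marker, while tumor macrophage markers were higher, at 9464 and 12194 and at 3748 and 7711. Their part in the Il4i1 difference was not tested. The mature dendritic list includes Ccl5 and was also high in contig droplets with no marker, so it is not particular to mature dendritic cells.

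The day difference of Il4i1 was not the same in droplets with and without T cell RNA. In Fscn1 droplets with a T cell UMI the level was 144 CPM (139 to 149) at day 13 and 72.1 CPM (66.2 to 78.4) at day 19. Without one it was 427 CPM (398 to 458) in 191 droplets and 460 CPM (403 to 523) in 47 droplets, a log2 ratio of 0.11 (-0.11 to 0.32). The lower day 19 level in Fscn1 droplets was seen in droplets with T cell RNA and not in those without it, and the part of that RNA was not tested. Depth differed along with it, with medians of 29006 and 36870 UMIs in Fscn1 droplets with T cell RNA and 7671 and 9010 in those without. Over all outside droplets without T cell RNA, Il4i1 was 112 CPM (105 to 119) and 79.3 CPM (70.2 to 89.2). The contig background had 37.0 and 18.4 CPM. Contig droplets with no marker had 7.55 and 5.04, contig droplets with a marker 163 and 68.3, and free RNA 26.2 and 7.99. The part of free RNA and doublets in the day difference was not tested.

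**Figure D3:**
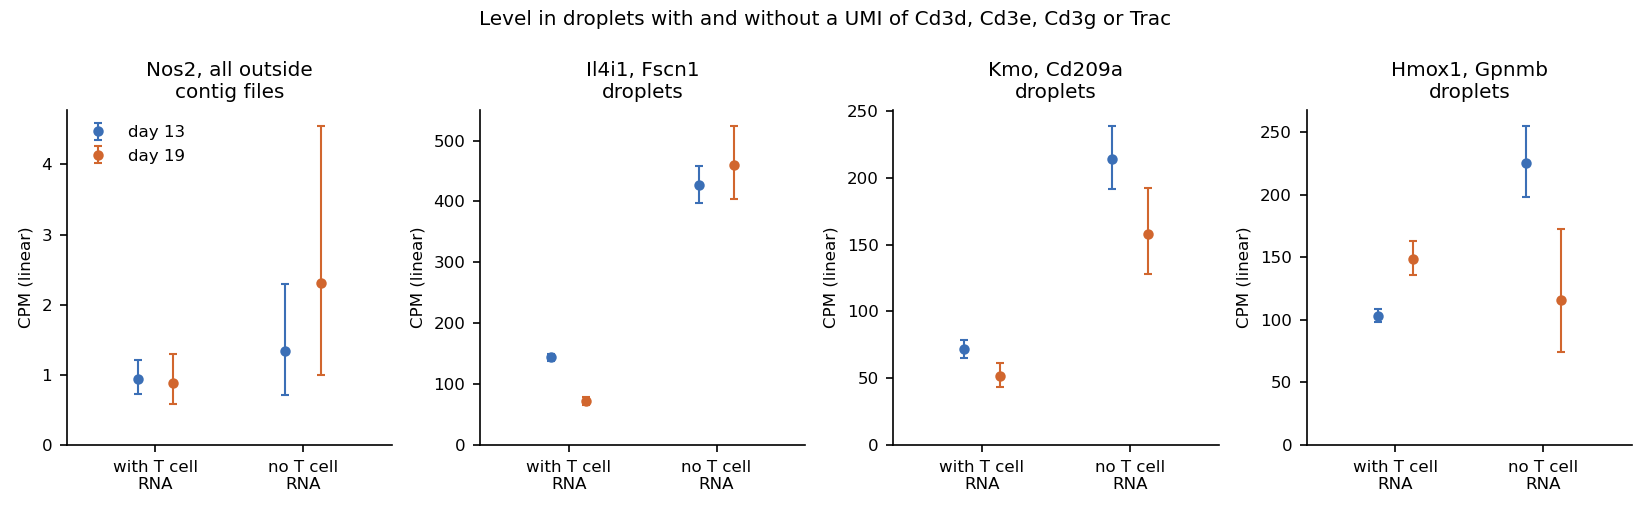
Level (CPM, linear axes with a separate scale per panel) in droplets with and without a UMI of the T cell genes Cd3d, Cd3e, Cd3g or Trac, on day 13 (blue) and day 19 (orange), with exact 95% counting intervals. Il4i1 in Fscn1 droplets is 144 and 72.1 CPM with T cell RNA and 427 and 460 without it, and Hmox1 in Gpnmb droplets changes direction between the 2 kinds of droplet.

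Kmo had its highest level in Cd209a droplets, but most of its UMIs lay elsewhere. Outside droplets had 2483 UMIs in 932 droplets at day 13, or 32.9 CPM (31.6 to 34.2), and 675 UMIs in 266 droplets at day 19, or 20.6 CPM (19.1 to 22.2). The log2 ratio was -0.68 (-0.80 to -0.55). Cd209a droplets had 100.2 CPM (93.2 to 108) and 72.9 CPM (63.7 to 83.0), and with Cd209a as the only marker 147 and 96.7. Thinned shares were 39.5% (34.3% to 44.8%) and 27.8% (20.4% to 36.3%), against 2.69% and 1.93% in contig droplets with no marker. Thinning is a random draw, and the share expected over all draws was 41.6% and 34.6%. With shared droplets left out, Cd209a droplets exceeded Gpnmb droplets by a log2 ratio of 3.53 (3.27 to 3.79) and 3.76 (3.06 to 4.54). Cd209a droplets were the highest class under all 15 settings on both days. They held 770 of the 2483 Kmo UMIs at day 13 and 227 of 675 at day 19, against 1151 and 329 in droplets with no marker. Of droplets with at least 2 Kmo UMIs, 172 of 556 (30.9%, 27.1% to 35.0%) and 60 of 156 (38.5%, 30.8% to 46.6%) carried Cd209a, and 46.9% and 44.9% carried no marker.

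The other marker classes had less Kmo than Cd209a droplets. Fscn1, Gpnmb, Vcan and P2ry12 droplets had 19.7, 14.2, 17.0 and 17.2 CPM at day 13, close to the contig background of 16.3. At day 19 they had 10.8, 7.35, 1.88 and 10.1 CPM against 12.3, the Vcan value resting on 1 UMI. Fscn1 droplets without T cell RNA, however, had 21.3 CPM (15.1 to 29.1) at day 13 and 45.4 CPM (28.8 to 68.2) at day 19, the latter from 23 UMIs. Droplets with no marker, however, had 35.6 CPM (33.6 to 37.8) and 23.0 CPM (20.6 to 25.6), with a Kmo UMI in 428 of 2414 and 119 of 811 droplets. Among these, droplets with at least 2 Kmo UMIs had more type 2 dendritic marker RNA than droplets with none, by a log2 ratio of 2.22 at day 13 and 1.77 at day 19. Markers of type 1 dendritic cells were higher by 1.40 and 1.18, those of plasmacytoid dendritic cells by 0.45 and 1.20, and T cell markers differed by -1.14 and -1.01. The type 2 list, which includes H2-Ab1 and Itgax, is not particular to Kmo droplets. In droplets with no marker but at least 2 Il4i1 UMIs it was higher by 1.24 at day 13, and the mature dendritic list by 0.59. The cell type of these Kmo droplets was therefore not settled. Levels again differed with T cell RNA: Cd209a droplets without it had 214 CPM of Kmo (192 to 239) and 158 CPM (128 to 192), against 71.7 and 51.8 with it. Over all outside droplets without T cell RNA, Kmo was 89.4 CPM (83.5 to 95.6) at day 13 and 84.2 CPM (74.8 to 94.4) at day 19, and the log2 ratio shrank to -0.09 (-0.28 to 0.11). Kmo was also lower at day 19 in contig droplets with no marker, at 13.1 and 8.66 CPM (-0.60, -0.82 to -0.38), and free RNA held 17.1 CPM (12.8 to 22.4) and 9.40 CPM (5.74 to 14.5). The part of free RNA in the Kmo difference was not tested.

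Hmox1 was seen after thinning in 19.9% of outside droplets at day 13 and 18.7% at day 19. It had 5261 and 2115 UMIs, or 69.7 CPM (67.8 to 71.6) and 64.5 CPM (61.8 to 67.3), a log2 ratio of -0.11 (-0.19 to -0.04). At day 13 the classes ran from Vcan, at 166 CPM (152 to 181), through Gpnmb at 112 (107 to 117), P2ry12 at 98.3 (93.9 to 103) and Fscn1 at 74.4 (70.8 to 78.0) to Cd209a at 54.1 (49.1 to 59.6). No 2 neighbours in that order had overlapping intervals, but these intervals count UMIs as independent. Without the 5 droplets richest in Hmox1, Vcan droplets had 127 CPM and Gpnmb droplets 103. Without T cell RNA, Vcan had 277 CPM (234 to 324), Gpnmb 225 (198 to 255) and P2ry12 203 (179 to 229). Neighbouring intervals of these classes then overlapped. With 1 marker, with or without T cell RNA, Fscn1 and Cd209a droplets had only 32.1 and 28.9 CPM at day 13, near the contig background of 30.6. At day 19 Gpnmb droplets had 147 CPM (134 to 160), Vcan 131 (102 to 166), P2ry12 80.6 (75.6 to 86.0), Fscn1 68.2 (62.6 to 74.1) and Cd209a 36.3 (29.9 to 43.6). The Gpnmb and Vcan intervals then overlapped, and of 15 settings Gpnmb was the highest class in 12. Without T cell RNA the day 19 order was P2ry12 at 187 CPM (147 to 234), Fscn1 at 121 (92.2 to 155), Gpnmb at 116 (74.4 to 173), Cd209a at 77.2 (56.9 to 102) and Vcan at 56.9 (27.3 to 105). With 1 marker, Fscn1 and Cd209a droplets had 35.1 and 26.3 CPM at day 19.

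The day difference of Hmox1 varied by class. It was a log2 ratio of 0.39 (0.25 to 0.54) in Gpnmb droplets, -0.58 (-0.89 to -0.27) in Cd209a droplets and -0.29 (-0.40 to -0.17) in P2ry12 droplets, while the intervals of Fscn1 and Vcan droplets included 0. The Cd209a value reversed to 1.13 (0.54 to 1.72) without T cell RNA and was -0.14 (-0.68 to 0.38) with Cd209a as the only marker. The Gpnmb value rested on few droplets: 1 droplet held 149 of the 499 day 19 UMIs and 5 droplets held 53.7%. Without the 5 droplets richest in Hmox1 on each day, the level in Gpnmb droplets was 103 CPM at day 13 and 72.5 at day 19, a log2 ratio of -0.51. Gpnmb droplets without T cell RNA also went from 225 CPM (198 to 255) to 116 CPM (74.4 to 173). Thinned shares in Gpnmb droplets were 40.0% (35.8% to 44.3%) and 27.4% (18.7% to 37.5%), where 41.3% and 35.8% are expected over all draws. Free RNA held 39.1 and 40.9 CPM of Hmox1, and contig droplets with no marker 18.6 and 17.6.

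**Figure D4:**
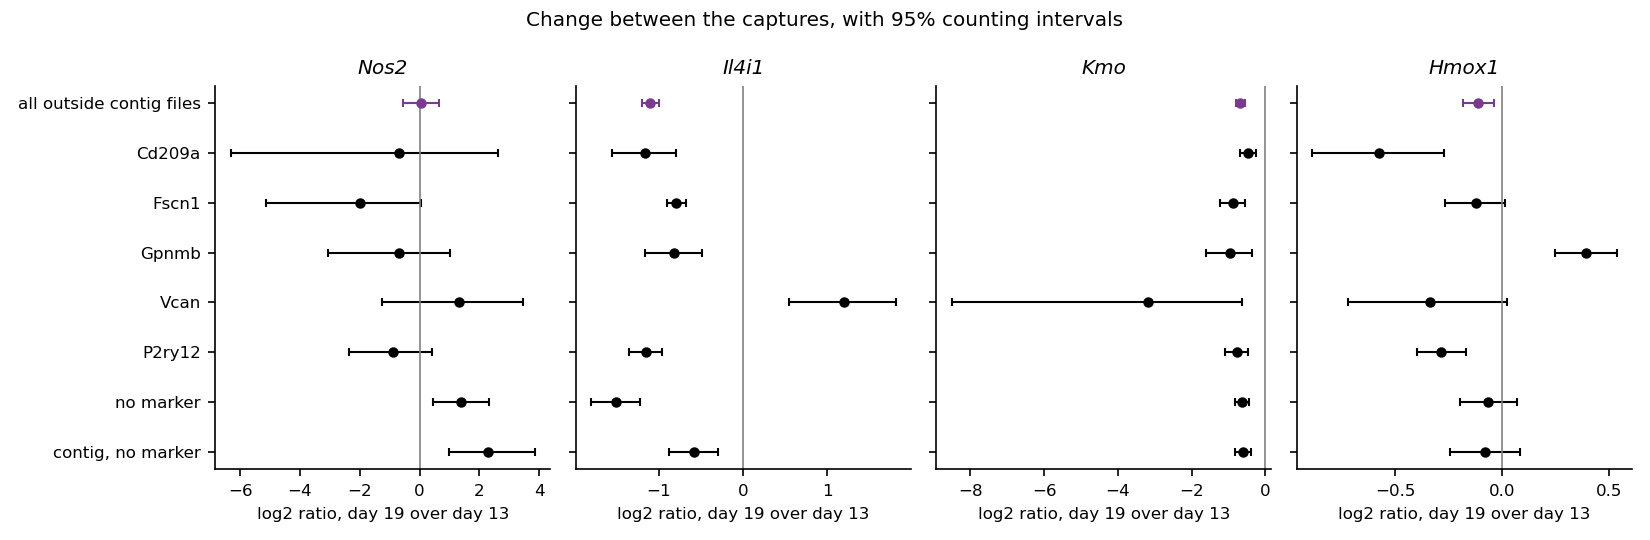
Log2 ratio of day 19 over day 13 for the 4 better-counted enzymes, by marker class and in contig droplets with no marker; bars are exact 95% counting intervals and the grey line marks no difference (axes differ between panels). Nos2 in all outside droplets is at 0.06, and Il4i1 is below 0 except in Vcan droplets at 1.20.

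Outside droplets rarely showed more than 1 of the enzymes. After thinning to 5000 UMIs, 61.8% of outside droplets at day 13 and 69.4% at day 19 showed none of the 5, and 33.9% and 28.4% showed 1. A pair was seen in 4.12% and 2.13%, 3 of the genes in 6 and 2 droplets, and 4 in none. Of the 10 pairs, Il4i1 and Kmo shared 68 droplets at day 13, which is 13.5% of the Il4i1 and 15.3% of the Kmo droplets, and 14 at day 19, 14.7% and 12.8%. Their shares of all outside droplets were 11.9% and 10.5% at day 13 and 6.54% and 7.51% at day 19. In this draw Kmo was low, since 11.2% and 8.87% are expected over all draws. Hmox1 was seen in 58 of 505 Il4i1 droplets (11.5%, 8.84% to 14.6%) at day 13, against 19.9% of all outside droplets. At day 19 it was seen in 12 of 95 (12.6%, 6.70% to 21.03%), an interval that includes the 18.7% of all outside droplets. In Kmo droplets it was seen in 55 of 444 (12.4%, 9.47% to 15.8%) at day 13 and 11 of 109 (10.1%, 5.15% to 17.3%) at day 19. Droplets can hold more than 1 cell, so a pair seen together need not share a cell.

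Few other genes of the same pathways were past a log2 ratio of 1 between the days. Over all 12182 genes with at least 100 UMIs in both days together, 2.53% were higher at day 19 by a log2 ratio of at least 1 and 1.94% were lower by as much. None of the 22 arginine pathway genes reported here and counted that deeply, of 28 listed, was past that fold. Of 17 tryptophan and kynurenine genes (26 listed) Il4i1 alone was past it, and of 22 heme and NRF2 genes (25 listed) Slc7a11 alone, the cystine transporter, at 27.2 and 13.6 CPM (-1.001). None of 19 regulators and inducing receptors was. Their median log2 ratio was -0.34, against 0.02 over all genes, with Relb, an NF-kB subunit of mature dendritic cells, at 163 and 106 CPM (-0.61) and Rel, another subunit, at 188 and 127 CPM (-0.57). Mature dendritic markers were lower as well, at 5736 and 3165 CPM over outside droplets and 5171 and 2504 in contig droplets with no marker. The part of the mix of cells in the lower regulators was not tested. This marker list includes Ccl5 and Relb and was nearly as high in those contig droplets at day 13. Its level alone does not set mature dendritic cells apart from T cells. The medians of the arginine, tryptophan and heme lists were 0.096, -0.13 and -0.20.

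Within classes, 3 list genes or fewer were past the fold. List genes counted deeply enough numbered 69 in Cd209a, 74 in Fscn1, 71 in Gpnmb, 55 in Vcan and 74 in P2ry12 droplets. In Gpnmb droplets Gch1, which makes the cofactor of nitric oxide synthase, and Slc7a11 were lower, at log2 ratios of -1.24 and -1.35, where 3.03% of 9385 genes were as much higher and 2.47% as much lower. In P2ry12 droplets (2.19% and 2.29% of 10387 genes) Il4i1 and Slc7a11 (-1.25) were lower. Without T cell RNA, however, Il4i1 in P2ry12 droplets was at 10.1 and 24.9 CPM, a log2 ratio of 1.30 (-0.05 to 2.60). In Cd209a droplets (0.926% and 1.16% of 7779 genes) only Il4i1 and Slc7a11 (-1.73) were past the fold, both lower. In Vcan droplets (2.34% and 2.67% of 4651 genes) Il4i1 was higher, and Ass1, which rebuilds arginine from citrulline, and Slc7a8, an amino acid transporter, were lower at -1.05 and -1.32. No list gene with at least 100 UMIs passed the fold in Fscn1 droplets, where 2.01% and 1.91% of 10394 genes did.

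Kmo was not alone among kynurenine genes in Cd209a droplets at day 13. Compared with Gpnmb droplets, with shared droplets left out, 2.73% of 9288 genes were higher by a log2 ratio of at least 1 and 4.13% were lower. Of 13 tryptophan pathway genes, 3 were higher: Kmo, Kynu (kynureninase) at 43.8 against 11.1 CPM (1.99) and Haao, which acts after it, at 19.6 against 7.61 CPM (1.36). Slc7a8 was lower (-1.42). Of 21 heme and NRF2 genes 7 were lower, among them Hmox1 (-1.22), the biliverdin reductase Blvrb at 30.2 against 104 CPM (-1.79), the NRF2 target Srxn1 (-2.07), Slc7a11 (-1.87) and the ferritin chains Fth1 (-1.03) and Ftl1 (-1.32). The seventh was the hemopexin receptor Lrp1 (-1.35). Of the 18 arginine genes reported here, Paox (-1.62), a polyamine oxidase, was lower. At day 19, with 3.06% and 3.15% of 6310 genes past the fold, Kmo was the only tryptophan gene higher in Cd209a droplets, while Kynu and Haao, with log2 ratios of 1.75 and 1.86, had under 100 UMIs. Gch1 (1.01), the transcriptional repressor Bach1 (1.70) and the receptor chains Csf2rb (1.08) and Csf2rb2 (1.15) were higher too. Hmox1 (-2.09), Lrp1 (-1.38), Paox (-1.53) and Slc7a8 (-1.58) were again lower, though the Hmox1 value became -0.59 (-1.32 to 0.18) without T cell RNA.

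Fscn1 droplets were set against Gpnmb droplets in the same way. At day 13, 4.74% of 10009 genes were past the fold upward and 1.61% downward. Il4i1 and Kynu (22.0 against 10.2 CPM, 1.11) were 2 of 14 tryptophan genes that were higher. Among 19 regulators Relb (318 against 90.3 CPM, 1.82), Irf8 (1.08) and Rel (1.07) were higher and none was lower. Paox (-1.10), Blvrb (-1.08), Fth1 (-1.10) and Srxn1 (-1.70) were lower, and Ddah2 (1.62) and the iron exporter Slc40a1 (1.15) higher. At day 19, with 2.31% and 0.553% of 7780 genes past the fold, Il4i1, Relb (1.25) and Rel (1.13) were higher and Hmox1 (-1.47) lower. The Hmox1 value rested on few Gpnmb droplets, as it was -0.40 (-0.69 to -0.10) without the 5 droplets richest in Hmox1 on each side and 0.03 (-0.90 to 1.08) without T cell RNA.

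Vcan and P2ry12 droplets were also compared with Gpnmb droplets. At day 13, of 71 list genes, only Slc7a8 (1.20) and Alas1 (1.27), the first enzyme of heme synthesis, were past the fold in Vcan droplets, both higher, where 2.02% of 9100 genes were as much higher and 2.53% as much lower. At day 19, in 23 Vcan droplets and with 3.45% and 3.2% of 4931 genes past the fold, 9 of 54 list genes were higher, among them Gch1 (166 against 35.1 CPM, 2.25), Bach1 (1.28), Cebpb (1.18), Alas1 (1.17) and Il4i1 (1.48), the last from the few droplets described above. Paox (-1.11) was lower. In P2ry12 droplets at day 13 (3.44% and 0.892% of 9755 genes) Ddah2, which breaks down inhibitors of nitric oxide synthase, was higher by 2.31 and Slc40a1 by 2.66. Srxn1 (-1.91) and Slc7a11 (-1.32) were lower. At day 19 (1.81% and 0.757% of 8449 genes) Hmox1 was the only list gene past the fold in P2ry12 droplets, at 73.4 against 164 CPM (-1.16). That difference was -0.08 (-0.38 to 0.23) without the 5 droplets richest in Hmox1 on each side, and without T cell RNA it reversed to 1.13 (0.22 to 2.15), from 8 Gpnmb droplets.

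Genes that moved with each enzyme were ranked in 2 ways. Over droplets, the ratio of CPM in droplets with at least 2 UMIs of the enzyme to droplets with none was used, and the smaller of the 2 days decided the rank. For Nos2, from 15 and 5 droplets, the first were Il1rn, Cfb and Rsad2, Grina and Prdx5, with Rsad2, an interferon-induced antiviral protein, at 1.17 and 2.74. Ido1 had too few droplets to rank.

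Il4i1 droplets were rich in Nudt17, at 58.1 against 1.31 CPM at day 13 and 53.2 against 1.33 at day 19, and in Ankrd33b, Mreg, Fscn1 and Tmem150c, with log2 ratios from 4.65 to 5.48. Mature dendritic markers as a list were higher in them by 1.28 and 1.63. For Kmo the first were Cyp7b1, an oxysterol hydroxylase, at 17.6 against 0.655 CPM at day 13 and 16.8 against 0.348 at day 19, then Plet1, Ctnnd2, the fatty acid receptor Ffar2 and the transcription factor Bcl11a. Hmox1 droplets ranked Lrg1 and Gdf15 first, the latter a stress-induced cytokine at 29.7 against 2.698 CPM at day 13 and 4.72 against 0.415 at day 19. Cldn5, Gpnmb and Ccl8 followed, with Gpnmb at 2.68 and 2.59. The ranks of Lrg1 and Cldn5 lean on very low levels in droplets without Hmox1. Lrg1 was at 1.90 against 0.0870 CPM at day 13, and Cldn5 at 9.17 against 0.0692 CPM at day 19. Droplets with an enzyme were deeper than droplets without it for all of these except Kmo at day 19 (medians 16015 and 16200 UMIs), and the part of depth in these lists was not tested.

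Over the 10 points of 5 single-marker classes on 2 days, the genes whose log2(CPM + 1) followed Il4i1 most closely were Tbc1d8 and Tuba1a (Pearson's r 0.98 for both), Tmtc2, Lrrk1 and Etv3. For Kmo they were Dnajc7, Baz2b, Clec9a (0.96), a type 1 dendritic receptor, Lmo1 and Pip4k2a. Hmox1 was followed by Ggh, Pgd, Gde1, Kcnj8 and Agfg2, with r from 0.94 to 0.96. Nos2 and Ido1 had Cdk16 and Adam23 first, at 0.96 and 0.89, but their class levels rest on few UMIs. The 10 points share 2 captures and differ in depth, so these r values only describe the classes.

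Antibody tags gave a second readout in the same droplets, as a share of all tag UMIs in droplets with at least 2 UMIs of an enzyme over droplets with none. Il4i1 droplets had more of the MHC class II tag IAIE, with log2 ratios of 2.46 and 2.53, and of CD86, a costimulatory ligand, with 1.24 and 0.90, and less CD38 (-2.10 and -1.67). Kmo droplets had more CD11c (0.81 and 1.02), IAIE (0.99 and 0.75) and CD24 (0.56 and 0.80). Hmox1 droplets had more CD11b (1.47 and 1.55), CD44 (0.94 and 1.09) and Ly6A (0.72 and 1.43). The CD1d tag led for Nos2 at 1.17 and 0.83 and reversed to -2.18 and -2.64 without 1 droplet per day, which held 91.6% and 93.0% of its UMIs.

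Multiplexing tags allow a look at spread within a capture. Outside droplets with at least 10 tag UMIs, at least 80% of them on 1 of 4 tags, numbered 94, 278, 125 and 111 for the tags at day 13 and 24, 203, 49 and 53 at day 19. Across these tags Il4i1 ranged from 47.8 to 119.6 CPM, Kmo from 41.2 to 59.1 and Hmox1 from 53.3 to 126.9 at day 13, and from 15.04 to 67.9, 10.7 to 27.2 and 38.1 to 73.8 at day 19. The Kmo ranges of the days did not overlap, and those of Il4i1 and Hmox1 did. The lowest day 19 Kmo value, however, rests on 5 UMIs. At day 13 Kmo in all 4 tags lay above the 32.9 CPM of all outside droplets, so tagged droplets do not stand for the rest. Without T cell RNA the Kmo log2 ratio of the days was -0.09 (-0.28 to 0.11). What a tag stands for is not stated in the labels, so these ranges are not replicate error.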

How the data were processed

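Gene UMI counts, antibody tag counts and multiplexing tag counts per barcode were deposited by the authors as unfiltered matrices, and T cell receptor contig tables, 4 per day. Cell Ranger 4.0.0, STAR 2.7.5c and mm10 are named in the submitters' processing notes. Barcodes with at least 5000 gene UMIs and at most 10% mitochondrial UMIs were kept, and split by whether a contig table lists them. Counts were summed per day and class and given as CPM with exact Poisson intervals (95%). Log2 ratios carry exact conditional intervals, and a group at 0 was set to a floor of 3 counts. Shares were compared after thinning to 5000 UMIs (1 random draw), with exact binomial intervals. Counting intervals do not measure spread between mice or between droplets, and with 1 capture per day no p-value was computed. Python 3.11.15, numpy 2.4.6, scipy 1.17.1 and pandas 2.3.3 were used. On simulated counts for day 19 over day 13 in outside droplets (2000 genes), 94.9% of intervals held the true ratio and 200 of 200 changed genes were recovered. Those counts were drawn as Poisson counts, which the intervals assume. The simulation therefore checks the calculation and does not cover UMIs clumped in a few droplets.

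Depth was 144565182 gene UMIs at day 13 and 81224453 at day 19 over all barcodes. The genes, classes and pathway lists were chosen with earlier results of these data known. Named genes are the 5 enzymes, list genes with at least 100 UMIs past a 2-fold difference (and the lowest regulators, named after their values were seen), and the 5 most alike genes per enzyme (at least 50 UMIs over droplets, 200 over classes). A further enzyme and other list genes are not reported here. Doublets and free RNA were not removed. Alternatives changed the UMI, mitochondrial and marker limits, thinning, averaging, T cell RNA, the richest droplets and each tag. A contig background with no marker and free RNA were added after the data were seen, as were class ratios without T cell RNA or the richest droplets.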

Additional observations from a re-analysis of the deposited data

Results flagged for a closer look

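For 2 genes the day difference pointed opposite ways in different marker classes, with counting intervals that exclude 0 on both sides. The difference between classes was not tested, since each day has 1 capture, and classes share droplets. The log2 ratio of day 19 over day 13 for Il4i1 was 1.20 in Vcan droplets, against -1.17 in Cd209a, -0.79 in Fscn1, -0.82 in Gpnmb and -1.16 in P2ry12 droplets. The Vcan value rests on 31 UMIs at day 19, 30 of them in 1 droplet. For Hmox1 it was 0.39 in Gpnmb droplets, against -0.58 in Cd209a and -0.29 in P2ry12 droplets, and 1 droplet held 149 of the 499 day 19 UMIs in the Gpnmb class. Without T cell RNA the Hmox1 ratio was 1.13 in Cd209a and -0.95 in Gpnmb droplets. The Il4i1 ratio was then 0.11 (-0.11 to 0.32) in Fscn1 and 1.30 (-0.05 to 2.60) in P2ry12 droplets. With 1 Vcan UMI enough, Il4i1 in Vcan droplets was at -1.03.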

How the results depend on the processing

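No paired analysis was possible because each day has 1 capture and no test was run. Values below are log2 ratios, and no cause of a shift was tested.

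Day 19 over day 13 in outside droplets was 0.06 for Nos2, -1.21 for Ido1, -1.10 for Il4i1, -0.68 for Kmo and -0.11 for Hmox1. Without droplets that hold T cell RNA these became 0.78 for Nos2, -0.49 for Il4i1, -0.087 for Kmo and -0.63 for Hmox1; Ido1 had 5 and 0 UMIs, so its ratio is 0.74 at a floor of 3 counts, at most 1.604 with counting error, and has no direction. Thinned, Il4i1 was -0.73 and Kmo -0.45. As a mean of droplets' CPM, Il4i1 was -0.76 and Kmo -0.38. Without the 5 richest droplets Il4i1 was -1.29, Kmo -0.80 and Hmox1 -0.33. A minimum of 10000 UMIs gave -1.31 for Il4i1, and one of 1000 gave -0.029 for Hmox1. Leaving out each multiplexing tag gave 0.02 to 0.10 for Nos2, -1.68 to -1.02 for Ido1, -1.14 to -1.03 for Il4i1, -0.68 to -0.66 for Kmo and -0.15 to -0.08 for Hmox1. Few outside droplets had a called tag, so each of these settings left most outside droplets in place.

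Outside over contig droplets, both days, was 1.09 for Nos2, 2.31 for Ido1, 0.91 for Il4i1, 1.01 for Kmo and 1.11 for Hmox1. Against contig droplets with no marker it was 3.06 for Il4i1, 1.40 for Kmo and 1.91 for Hmox1. Without T cell RNA it was 1.76 for Nos2, 1.86 for Il4i1, 2.61 for Kmo and 1.77 for Hmox1. Thinned it was 1.54 for Il4i1, 1.77 for Kmo and 1.37 for Hmox1. Means gave 1.51, 1.85 and 1.42 for Il4i1, Kmo and Hmox1. Without the 5 richest droplets it was 1.69 for Nos2, 1.05 for Il4i1 and 1.25 for Hmox1. Minima of 1000 and 10000 UMIs gave 1.11 and 0.18 for Il4i1, 1.20 and 0.35 for Kmo, and 1.27 and 0.77 for Hmox1. Leaving out each tag gave 1.03 to 1.16 for Nos2, 2.08 to 3.55 for Ido1, 0.85 to 1.09 for Il4i1, 0.97 to 1.17 for Kmo and 1.04 to 1.18 for Hmox1.

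Within classes, 13 day ratios had intervals that exclude 0, and only these were followed; 7 of them changed sign, with 8 such values in all. Without T cell RNA, Il4i1 was 0.11 (-0.11 to 0.32) in Fscn1 and 1.30 (-0.05 to 2.60) in P2ry12 droplets, Kmo 1.10 (0.29 to 1.88) in Fscn1 and 0.71 (-1.79 to 2.66) in Gpnmb droplets, and Hmox1 1.13 in Cd209a and -0.95 in Gpnmb droplets. Without the 5 richest droplets Hmox1 in Gpnmb droplets was -0.51. With 1 Vcan UMI enough, Il4i1 in Vcan droplets was -1.03. Of their other values 130 stayed within the interval and 37 moved without a change of sign. Against Gpnmb droplets, without T cell RNA, Il4i1 in P2ry12 droplets at day 13 was -1.77 (0.43 over all droplets), and Hmox1 at day 19 was 0.029 in Fscn1 and 1.13 in P2ry12 droplets. Depth limits Ido1 and Nos2, with 19 and 109 UMIs.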
